A study of Mus musculus with 18 samples.

Results

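Retinaldehyde dehydrogenases and the proteins that handle vitamin A inside cells were described across 3 epithelial populations of the mouse mammary gland. The 9 genes were taken by symbol, through GENCODE release M21, from the 52636 gene identifiers of the count files: Aldh1a1, Aldh1a2, Aldh1a3, Aldh1a7, Rdh10, Crabp1, Crabp2, Stra6 and Cyp26b1. Vitamin A circulates as retinol. STRA6 carries it across the plasma membrane, and RDH10 oxidizes it reversibly to retinaldehyde. ALDH1A1, ALDH1A2 and ALDH1A3 oxidize retinaldehyde irreversibly to retinoic acid. CRABP1 and CRABP2 bind retinoic acid in the cell, CYP26B1 breaks it down, and nuclear receptors of the RAR and RXR families read it out at their target genes. ALDH activity measured with a fluorescent substrate is widely used to mark progenitor cells in mammary epithelium.

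The mice were 6 nulliparous, untreated MMTV-Cre animals, 12 weeks of age. All groups carry this transgene, in which the promoter of mouse mammary tumour virus drives Cre recombinase in mammary epithelium; no floxed allele is named. Cells of the digested glands were stained for CD49f, CD61, EpCAM and a lineage set (CD31, CD45 and Ter119) and sorted. The sorted gates were basal (high CD49f, CD61 positive), alveolar progenitor (AP; low CD49f, CD61 positive, also named luminal progenitor) and hormone-sensing luminal (HSL; low CD49f, CD61 negative, also named mature luminal). The libraries were made from 2 nanograms of total RNA each. There were 6 libraries per population, numbered as samples 1 to 6, with 26516293 to 91095830 counts each.

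The labels could be set against markers. The summed level of 6 basal markers (Krt5, Krt14, Trp63, Acta2, Myh11 and Oxtr) was 22511 to 40660 CPM, a gene's count relative to its library's TMM-scaled total, in basal libraries and at most 274 in AP and HSL libraries. The AP list (Elf5, Kit, Cd14, Csn3, Lalba and Ehf) summed to 2611 to 4634 CPM in AP libraries and at most 583 in the others, with the casein gene Csn3 at 0 in all 18 libraries. The span of Csn3 lies wholly within another annotated gene. The HSL list (Esr1, Pgr, Prlr, Foxa1, Prom1 and Ly6a) summed to 2393 to 7642 CPM in HSL libraries and at most 2016 in the others. Sample 1 stood apart in all 3 populations. The median absolute deviation of its genes from their population mean was 0.371 to 0.432 on the log2 scale, against 0.191 to 0.285 in the other 15 libraries. Values without sample 1 are given beside some of the results, not beside all that change when it is left out.

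Aldh1a1 and Aldh1a7 are neighbours with similar coding sequences, and the sequences are shown because reads from the stretches they share could be counted for either gene. On the GRCm38 build, Aldh1a1 (ENSMUSG00000053279) lies at chr19:20492715-20643465 on the plus strand and Aldh1a7 (ENSMUSG00000024747) at chr19:20692953-20727562 on the minus strand. Their coding sequences were identical at 1377 of 1503 aligned bases (91.6%), with a longest identical run of 100 bases. The other pairs of Aldh1a coding sequences shared 67.2 to 68.5% of bases. The following windows of 60 coding bases, taken from exon 9 of the GENCODE M21 transcripts, surround the codon of the catalytic cysteine; capitals mark bases that differ from Aldh1a1. Aldh1a1 is at chr19:20630698-20630757 (plus), Aldh1a7 at chr19:20708243-20708302 (minus), Aldh1a2 at chr9:71283410-71283469 (plus) and Aldh1a3 at chr7:66406067-66406126 (minus).
Aldh1a1: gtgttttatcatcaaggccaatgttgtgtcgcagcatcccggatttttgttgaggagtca
Aldh1a7: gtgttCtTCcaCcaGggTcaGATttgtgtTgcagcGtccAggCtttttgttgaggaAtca
Aldh1a2: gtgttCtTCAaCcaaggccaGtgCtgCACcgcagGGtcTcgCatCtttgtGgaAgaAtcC
Aldh1a3: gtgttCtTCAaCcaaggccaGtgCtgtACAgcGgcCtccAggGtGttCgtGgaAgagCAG
Aldh1a7 differed from Aldh1a1 at 14 of the 60 bases, Aldh1a2 at 19 and Aldh1a3 at 21.

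Per kilobase of exon, Aldh1a3 was the most abundant Aldh1a transcript in every AP and HSL library, and basal libraries held Aldh1a1 and Aldh1a3 together. In AP cells Aldh1a3 was 40.8-fold higher than in basal cells and Crabp2 9.03-fold higher, whereas Aldh1a1 and Aldh1a2 were 9.16-fold and 16.2-fold lower. In HSL cells Aldh1a3 was 2.76-fold higher than in basal cells, and Aldh1a1, Aldh1a2 and Crabp1 were lower. Rdh10 was 2.63-fold higher in HSL than in AP cells, while Aldh1a3, Crabp2 and Crabp1 were lower there. Calls required a p below 0.05 from edgeR's quasi-likelihood F test, adjusted by the Benjamini-Hochberg method over the 16471 genes that passed a filter on low counts. All changes below are log2 differences from this fit with their standard error. The 3 comparisons share libraries and are not independent.

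Of the 9 genes, 8 passed the filter and Cyp26b1 did not. In AP against basal 2 of the 8 were called higher and 2 lower, where 44.7% of all tested genes were called (21.5% higher and 23.1% lower). In HSL against basal 1 was called higher and 3 lower, where 58.4% of all genes were called (27.8% higher and 30.6% lower). In HSL against AP 1 was called higher and 3 lower, against 39.9% of all genes (19.8% higher and 20.1% lower). These shares are near the background, so the counts themselves set the 9 genes apart in no comparison. Libraries of both populations did not overlap for 3 of 9 genes in AP against basal, 1 of 9 in HSL against basal and 2 of 9 in HSL against AP, where the shares of all tested genes were 25.9%, 36.9% and 20.6%. The median log2 difference over the 8 tested members was 0.02, -0.39 and -1.40, and over all genes -0.0013, -0.064 and -0.011. Scaling by total counts alone moved the median over all genes to 0.136, -0.0996 and -0.185 and changed no call of a member; the share of calls that were higher went from 48.2 to 57.6%, from 47.7 to 45.8% and from 49.6 to 35.6%.

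**Figure D1:**
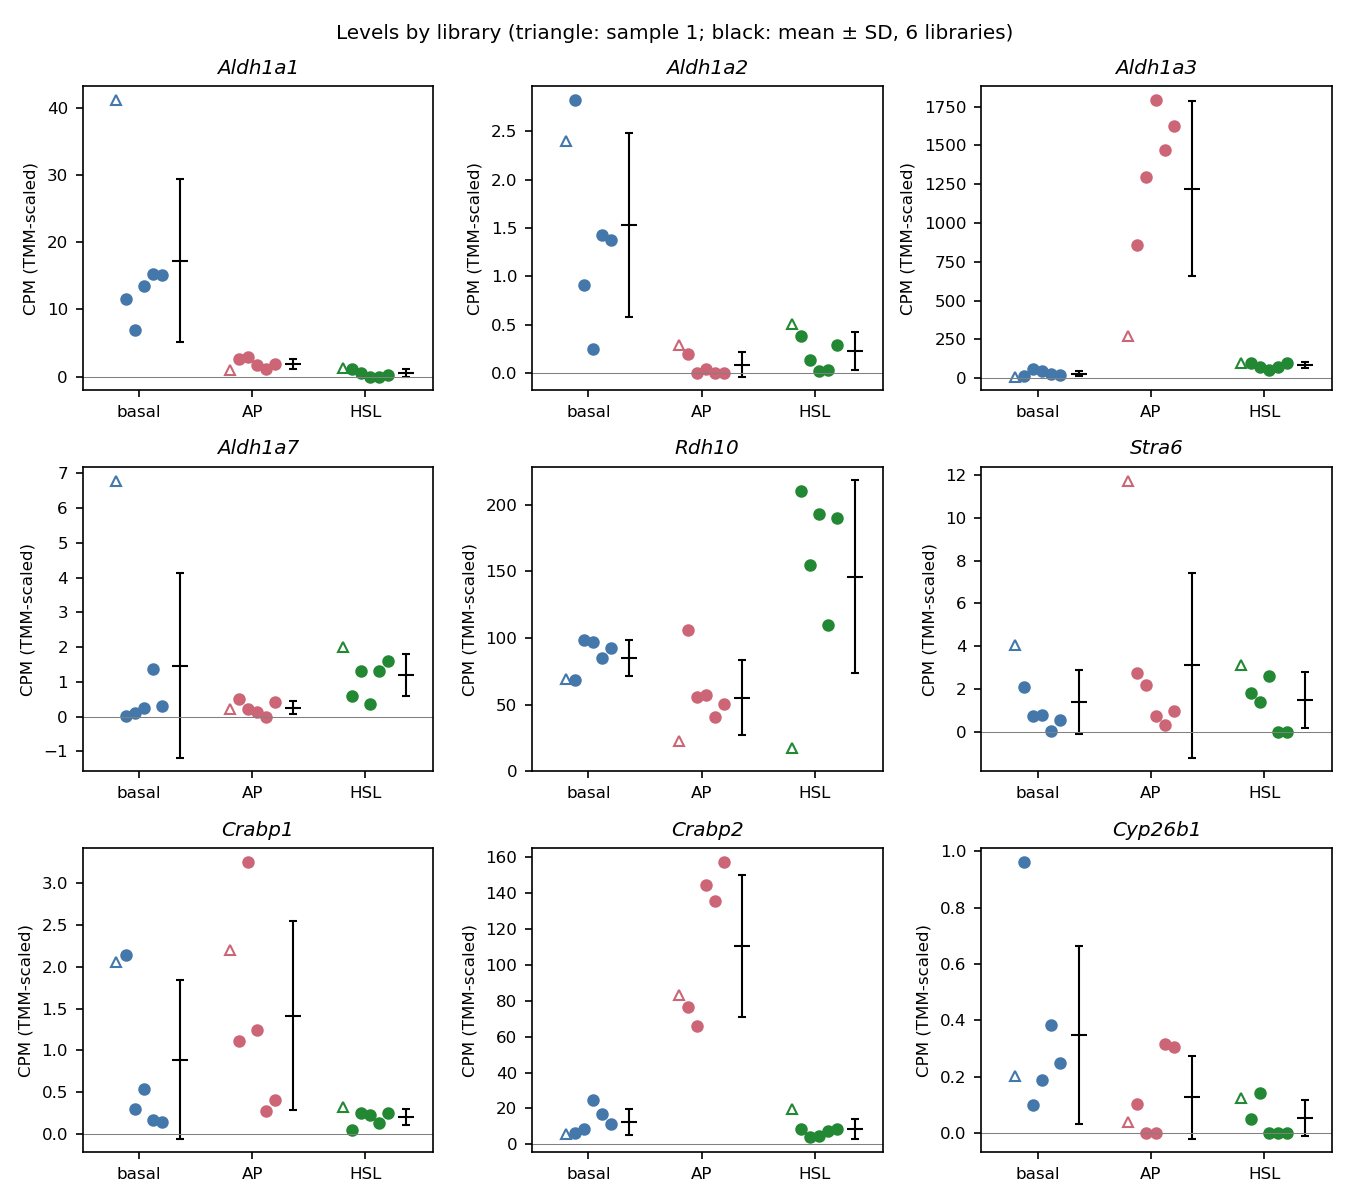
Level of each of the 9 genes in every library (CPM scaled by TMM factors, linear axis); each point is 1 library, a triangle is sample 1, and the black mark is the mean ± SD of 6 libraries. The AP libraries stand above the others for Aldh1a3 and Crabp2, and the basal libraries stand above the others for Aldh1a1.

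Uptake of retinol was represented by Stra6 (ENSMUSG00000032327, chr9:58063788-58153996, plus strand), the membrane receptor for retinol bound to its plasma carrier. Its level was lowest 0.0225, median 0.757 and highest 4.08 CPM in basal libraries. In AP libraries it ranged from 0.294 to 11.7 with a median of 1.59 CPM, and in HSL libraries from 0 to 3.12 with a median of 1.60 CPM. The populations overlapped throughout, sample 1 was highest in each, and HSL samples 5 and 6 held no read. No comparison was called: the log2 differences were 1.18 ± 1.09 for AP against basal (adjusted p = 0.405), 0.13 ± 1.08 for HSL against basal (adjusted p = 0.927) and -1.05 ± 1.09 for HSL against AP (adjusted p = 0.472). Without sample 1 these were 0.74, 0.47 and -0.27 (adjusted p = 0.594, 0.721 and 0.856), and the AP mean was 1.39 in place of 3.11 CPM. Of the Stra6 span in GENCODE M21, 61.2% is shared with other annotated genes, but the deposited gene width is shorter than that span, so this share may not apply to the counted model.

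Rdh10 (ENSMUSG00000025921, chr1:16105774-16133734, plus strand) encodes the retinol dehydrogenase that limits retinaldehyde formation in the embryo. Basal libraries held 68.6 to 98.6 CPM with a median of 88.9, AP libraries 22.5 to 106 with a median of 52.9, and HSL libraries 17.5 to 210 with a median of 172. Sample 1 was lowest in AP and in HSL libraries; the other 5 HSL libraries, at 109.5 CPM and above, lay above every basal and AP library. Rdh10 was higher in HSL than in AP cells (log2 difference 1.40 ± 0.42, adjusted p = 0.012), in 5 of 6 samples. Within a sample the ratio of HSL to AP was 0.780 in sample 1 and 1.98 to 3.78 in the others. Without sample 1 the difference was 1.45 (adjusted p = 8.39e-05), in samples 4 to 6 alone 1.70 (adjusted p = 0.000239), and with the block 1.31 (adjusted p = 0.00552). The call was lost without sample 3 (1.32, adjusted p = 0.0545), sample 4 (1.31, adjusted p = 0.0524) or sample 6 (1.21, adjusted p = 0.0746), and in samples 1 to 3 alone (0.98, adjusted p = 0.476). Against basal cells the differences were -0.62 ± 0.41 in AP (adjusted p = 0.235; in samples 4 to 6 alone -0.86, adjusted p = 0.00866) and 0.77 ± 0.41 in HSL cells (adjusted p = 0.114). Without sample 1 the HSL difference was 0.94 (adjusted p = 0.00183), and in samples 4 to 6 alone it was 0.84 (adjusted p = 0.00724).

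Aldh1a3 (ENSMUSG00000015134, chr7:66390890-66427517, minus strand) encodes the retinaldehyde dehydrogenase known from breast ALDH assays. Basal libraries held 10.7 to 57.4 CPM with a median of 25.1. AP libraries held 272 to 1793 CPM with a median of 1383, and HSL libraries 52.3 to 101 CPM with a median of 85.1. Every AP library lay above every other library, sample 1 was the lowest of them, and 1 basal library (sample 3) lay within the HSL range. Aldh1a3 was higher in AP than in basal cells by 5.35 ± 0.48 (adjusted p = 5.87e-08), in 6 of 6 samples, with ratios within a sample of 22.6 to 77.6. It was lower in HSL than in AP cells by 3.88 ± 0.45 on the log2 scale, a fold of 14.8 (adjusted p = 3.25e-06). HSL cells were 1.46 ± 0.41 above basal cells (adjusted p = 0.00521), again in 6 of 6 samples, with ratios from 1.15 in sample 4 to 9.44 in sample 1. Samples 1 to 3 alone gave 1.66 for this last comparison, with an adjusted p of 0.102.

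Aldh1a1 encodes the retinaldehyde dehydrogenase that is abundant in liver and in many stem cell assays. Its basal libraries held 6.89 to 41.3 CPM with a median of 14.4. AP libraries held 0.997 to 2.98 CPM with a median of 1.79, and HSL libraries 0 to 1.25 CPM with a median of 0.439. No basal library overlapped the others, and the highest basal level was that of sample 1. HSL samples 4 and 5 held no read, and a count of 0 there allows up to 0.0572 and 0.0914 CPM (3 counts of the library, counting error only). Aldh1a1 was lower in AP than in basal cells by -3.20 ± 0.74 (adjusted p = 0.00171) and in HSL than in basal cells by -4.95 ± 0.81 (adjusted p = 4.27e-05, a fold of 30.9), in 6 of 6 samples each. Without sample 1 the AP difference was -2.59 (adjusted p = 0.00479). HSL against AP gave -1.75 ± 0.73 (adjusted p = 0.0636), which became a call when sample number was fitted as a block (-2.16, adjusted p = 0.0209), without sample 1 (-2.35, adjusted p = 0.014), in samples 4 to 6 alone (-4.38, adjusted p = 0.00323) and with DESeq2 (-1.81, adjusted p = 0.0235). Of the M21 span of Aldh1a1, 40.0% is shared with other genes, but the deposited width is again shorter than the span, so this share may not apply to the counts.

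Aldh1a7, the neighbouring copy found in rodents, was at low levels. Basal libraries held 0.0209 to 6.79 CPM with a median of 0.282, AP libraries 0 to 0.520 with a median of 0.220, and HSL libraries 0.352 to 1.99 with a median of 1.32. Its highest basal level was that of sample 1, the sample also highest for Aldh1a1. No comparison was called, with log2 differences of -2.51 ± 1.03 for AP against basal (adjusted p = 0.0547), -0.30 ± 0.96 for HSL against basal (adjusted p = 0.808) and 2.21 ± 1.02 for HSL against AP (adjusted p = 0.0939). The first of these was -0.67 without sample 1 (adjusted p = 0.567) and -3.11 without sample 2 (adjusted p = 0.0318), and the second was 1.29 without sample 1 (adjusted p = 0.222). DESeq2 called the first and the last (adjusted p = 0.0218 and 0.0473). HSL exceeded AP in 6 of 6 samples. When the counts of Aldh1a1 and Aldh1a7 were added up, a setting chosen after the values were seen, the sum was 18.8 ± 14.8 CPM in basal libraries, 2.14 ± 0.898 in AP and 1.74 ± 0.941 in HSL libraries (SD, n = 6). The sum was lower than in basal cells by -3.13 in AP (adjusted p = 5.19e-05) and by -3.42 in HSL cells (adjusted p = 1.41e-05), and HSL against AP gave -0.29 (adjusted p = 0.655).

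Aldh1a2 (ENSMUSG00000013584, chr9:71215789-71296243, plus strand) encodes the dehydrogenase that makes most retinoic acid of the early embryo. It was at 0.246 to 2.83 CPM in basal libraries (median 1.40), 0 to 0.288 in AP libraries (median 0.0237) and 0.0220 to 0.512 in HSL libraries (median 0.214). The lowest basal library, sample 4, lay within the AP and HSL ranges, and the other 5 basal libraries lay above both. The difference was -4.02 ± 0.97 in AP (adjusted p = 0.00236) and -2.70 ± 0.91 in HSL cells (adjusted p = 0.0163, 6.51-fold), lower in 6 of 6 samples in both. In samples 1 to 3 alone the latter was -2.55 with an adjusted p of 0.0733. HSL against AP was not called (1.31 ± 0.93, adjusted p = 0.279).

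Like Aldh1a1 and Aldh1a2, some markers of other cell types were called lower in AP and HSL than in basal cells, while others were not. All 6 endothelial markers (Pecam1, Cdh5, Kdr, Tie1, Emcn and Plvap) were called lower in AP and in HSL than in basal cells, and their sum ran from 91.2 to 277 CPM in basal, 27.3 to 88.1 in AP and 18 to 58 in HSL libraries. Leukocyte markers (6 genes) summed to 66.2 to 314, 10.4 to 91.8 and 5.55 to 130 CPM, with 2 of the 5 tested lower in each, and erythroid markers to 65.2 to 264, 13.4 to 69.6 and 9.36 to 32.4 CPM, with all 4 tested lower. No endothelial or leukocyte marker was at 0 throughout, whereas erythroid Alas2 was. Adipocyte markers summed to 3.32 to 11.5, 0.205 to 4.62 and 0.251 to 1.68 CPM, and mesothelial markers to at most 3.99 CPM. Of 6 pericyte markers, 4 were called lower and 1 higher in AP than in basal cells (median log2 -1.95). In HSL cells 5 were lower and 1 higher (median log2 -2.93). Their sum was 69.0 to 106 CPM in basal, 95.0 to 207 in AP and 77.8 to 155 in HSL libraries. Most of this sum in AP and HSL libraries was Notch3, at 74.6 to 183 and 74.5 to 143 CPM. In basal libraries Notch3 was at 4.31 to 15.0 CPM. Pdgfrb was at 28.8 to 45.8 CPM in basal, 7.89 to 15.5 in AP and 0 to 5.29 in HSL libraries. Of 5 Schwann cell markers, 2 were lower and 2 higher in AP and 3 lower and 1 higher in HSL cells. They summed to 191 to 265, 292 to 658 and 111 to 125 CPM, mostly from Sox10 and Mbp. Sox10 was at 135 to 225 CPM in basal, 201 to 516 in AP and 6.23 to 43.0 in HSL libraries. Mbp was at 29.5 to 46.7, 90.3 to 145 and 66.3 to 107 CPM. All 8 fibroblast markers were lower in HSL than in basal cells, and in AP cells 5 were higher and 1 lower. The lineage antibodies of the sort mark endothelial cells (CD31), leukocytes (CD45) and erythroid cells (Ter119) and serve to remove them, though the labels give the gates only by CD49f and CD61. Their part in the levels of Aldh1a1 and Aldh1a2 was not tested. In bulk libraries fewer cells of a type and less RNA per cell cannot be told apart.

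Per kilobase of merged exons, the mix of Aldh1a transcripts could be compared within a library. Aldh1a3 made up 15.4 to 87.1% of the summed Aldh1a level in basal libraries (median 56.6%), 99.3 to 99.9% in AP libraries (median 99.8%) and 93.8 to 98.4% in HSL libraries (median 95.8%). Aldh1a1 made up 9.78 to 55.6% in basal (median 31.0%), at most 0.340% in AP and at most 1.09% in HSL libraries. The mix varied from library to library in basal cells and little in AP and HSL cells. Aldh1a2 reached 17.7% and Aldh1a7 21.9% of the sum in 1 basal library each, and Aldh1a7 made up 1.31 to 4.13% in HSL libraries. The summed level was 7.04 to 15.0 CPM per kilobase in basal, 59.5 to 389 in AP and 11.5 to 23.3 in HSL libraries, so that AP libraries lay above all others. These shares carry no test. The deposited width of Aldh1a1 is shorter than its M21 span, so the exons counted for it may differ from those that set its length here.

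**Figure D2:**
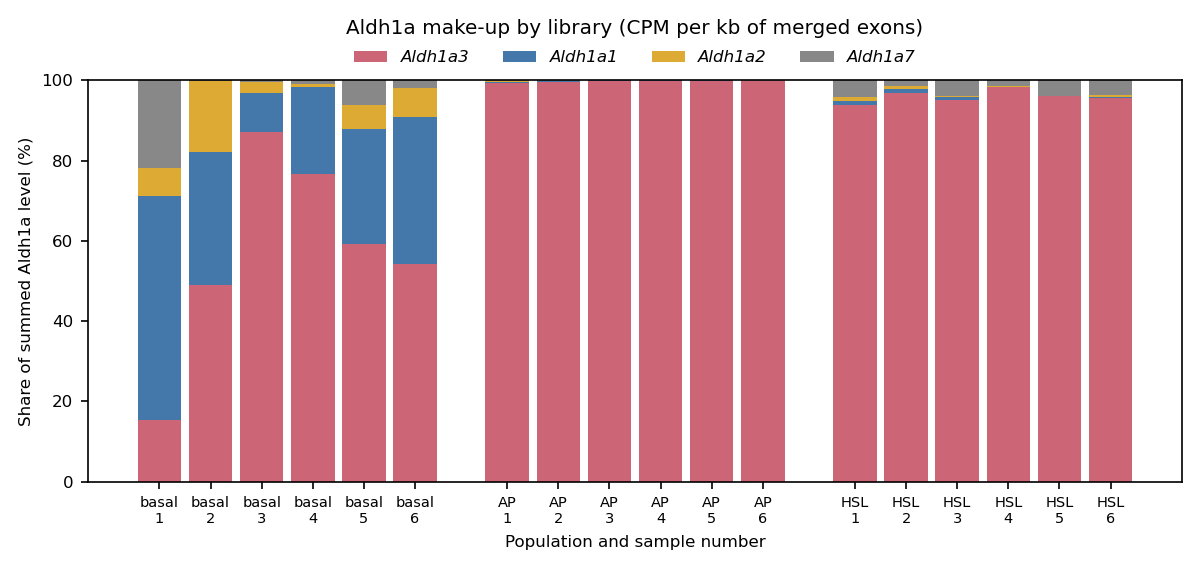
Share of Aldh1a1, Aldh1a2, Aldh1a3 and Aldh1a7 in the summed Aldh1a level (CPM per kilobase of merged exons) of each of the 18 libraries, in percent, ordered by population and sample number. Aldh1a3 makes up at least 99.3% in every AP library and 15.4 to 87.1% in basal libraries.

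Crabp2 (ENSMUSG00000004885, chr3:87948666-87953376, plus strand) encodes the binding protein that carries retinoic acid to its receptors. It was at 5.56 to 24.5 CPM in basal libraries (median 9.83), 65.7 to 157 in AP libraries (median 109) and 3.97 to 19.4 in HSL libraries (median 7.96). The AP libraries lay above all others, and the basal and HSL ranges overlapped. Crabp2 was higher in AP than in basal cells by 3.17 ± 0.43 (adjusted p = 8.7e-06), with ratios of 5.90 to 14.9 within the 6 samples. It was lower in HSL than in AP cells by -3.65 ± 0.44 (adjusted p = 5.04e-06, 12.6-fold), also in every sample. HSL against basal gave -0.48 ± 0.40 (adjusted p = 0.325). HSL sample 1 was the highest of its group, and without it this last difference was -1.05 (adjusted p = 0.0184); samples 4 to 6 alone gave -1.36 (adjusted p = 0.00366).

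Crabp1 (ENSMUSG00000032291, chr9:54764748-54773110, plus strand) encodes a close relative of CRABP2 that binds retinoic acid in the cytosol. It was at 0.141 to 2.14 CPM in basal libraries (median 0.413), 0.271 to 3.26 in AP libraries (median 1.18) and 0.0484 to 0.318 in HSL libraries (median 0.234). Samples 1 and 2 were the highest basal libraries, and the HSL range overlapped both others. Crabp1 was lower in HSL than in AP cells by -2.79 ± 0.77 (adjusted p = 0.00741, 6.92-fold), in 6 of 6 samples, and samples 4 to 6 alone gave -1.74 (adjusted p = 0.113). It was lower in HSL than in basal cells by -2.12 ± 0.76 (adjusted p = 0.0226), but this was lost without sample 1 (-1.90, adjusted p = 0.0605), without sample 2 (-1.44, adjusted p = 0.144) and in samples 4 to 6 alone (-0.52, adjusted p = 0.601). AP against basal was not called (0.67 ± 0.70, adjusted p = 0.468). All 8 fibroblast markers (Pdgfra, Col1a1, Col1a2, Col3a1, Dcn, Lum, Dpt and Pi16) were called lower in HSL than in basal and in AP cells, with sums of 695 to 1105, 623 to 1593 and 40.8 to 112 CPM in basal, AP and HSL libraries, and none was at 0 throughout. Their part in the levels of Crabp1 was not tested.

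Cyp26b1 (ENSMUSG00000063415, chr6:84571414-84593908, minus strand) encodes a cytochrome P450 that clears retinoic acid. Its counts were 4 to 46 per library in basal, 0 to 14 in AP and 0 to 7 in HSL cells. These correspond to 0.0985 to 0.963 CPM in basal libraries (median 0.224), 0 to 0.316 in AP (median 0.0695) and 0 to 0.141 in HSL libraries (median 0.0242). The ranges overlapped, and the highest basal library was sample 2. It did not pass the filter, so it has no test here. Of the other 2 clearance enzymes, Cyp26a1 had 0 counts in all 18 libraries, which allows up to 0.0329 to 0.113 CPM per library, and Cyp26c1 had at most 1 count.

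**Figure D3:**
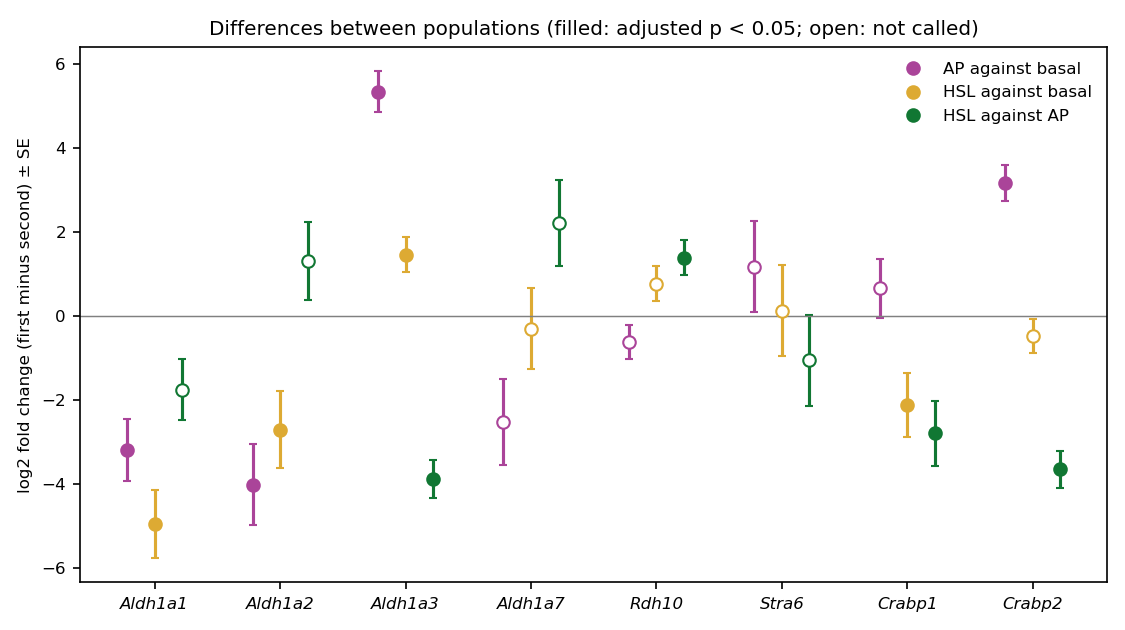
Fitted log2 difference of the 8 tested genes for AP against basal, HSL against basal and HSL against AP, with bars of 1 standard error; filled points passed an adjusted p of 0.05. Aldh1a3 and Crabp2 are higher in AP than in basal cells by 5.35 and 3.17, and Aldh1a1 and Aldh1a2 are lower.

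**Figure D4:**
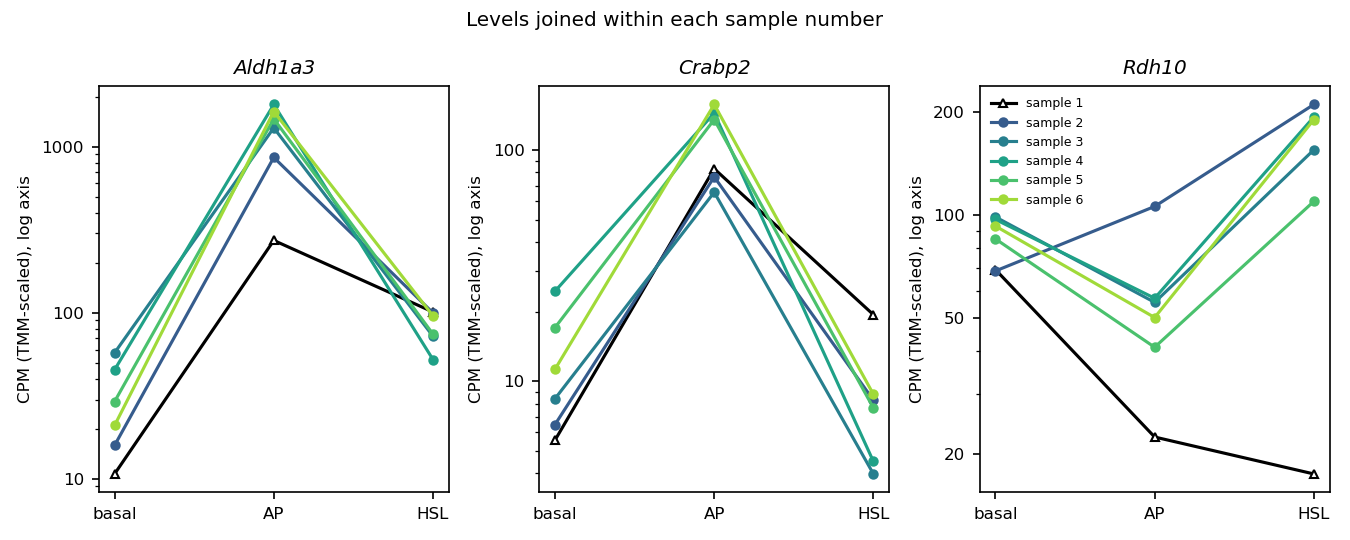
Level of Aldh1a3, Crabp2 and Rdh10 (CPM, log axis) with a line for each of the 6 sample numbers through basal, AP and HSL libraries. For Aldh1a3 and Crabp2 all 6 lines peak at AP, and for Rdh10 the line of sample 1 falls from AP to HSL where the other 5 rise.

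The promoters of the neighbouring copies are shown because their transcripts made up unlike shares of the Aldh1a sum in basal libraries. The basal medians were 31.0% for Aldh1a1 and 1.38% for Aldh1a7, which ranged from 0.144 to 21.9%. In HSL libraries the order was reversed, with medians of 0.498% for Aldh1a1 and 3.69% for Aldh1a7. RefSeq windows (GRCm38.p6) matched 6 of the 9 genes. Aldh1a3, Rdh10 and Crabp2 had no window, so their promoters were not searched. Stra6 and Aldh1a1 each gave several of the windows. Aldh1a1 has another RefSeq start farther from its coding exons, which is not shown, and the nearer start was used. The 250 bases before that start and before the Aldh1a7 start were identical at 163 of 241 aligned bases (67.6%). Capitals mark their longest shared run, 65 bases that end 29 bases before the start. Aldh1a1 is at chr19:20601718-20601967 (plus) and Aldh1a7 at chr19:20727557-20727806 (minus).
Aldh1a1: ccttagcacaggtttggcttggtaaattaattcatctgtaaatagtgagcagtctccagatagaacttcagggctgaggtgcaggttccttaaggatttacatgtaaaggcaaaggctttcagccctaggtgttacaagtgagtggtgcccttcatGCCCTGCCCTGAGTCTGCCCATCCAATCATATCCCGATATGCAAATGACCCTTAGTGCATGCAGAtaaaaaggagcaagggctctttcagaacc
Aldh1a7: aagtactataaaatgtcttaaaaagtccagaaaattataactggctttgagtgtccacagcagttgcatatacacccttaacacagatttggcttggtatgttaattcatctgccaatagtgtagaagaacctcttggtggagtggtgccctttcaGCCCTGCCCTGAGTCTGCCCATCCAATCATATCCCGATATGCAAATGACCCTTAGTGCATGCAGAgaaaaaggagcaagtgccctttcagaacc
AGGTCA and AGTTCA are hexamers that retinoic acid receptors bind as pairs. Both were searched on both strands of the 250 bases before the start. They were in 14.0% and 11.8% of 32851 RefSeq windows and in 0 of 10 windows of the matched genes. TATAAA, also searched on both strands, was in 12.4% of windows and in 2 of the 10 (Cyp26b1 and Aldh1a7). In Aldh1a7 it lay at the end of the window far from the start, and in Cyp26b1 near the middle.

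Genes whose log2 CPM followed that of a member most closely over the 18 libraries were taken among 9324 tested genes with a mean of at least 10 CPM, as a description with no test. For Aldh1a3 these were Slc5a7 (Pearson r = 0.995), Muc1 (0.991), Cck (0.986), Kcnk5 (0.984) and Btn1a1 (0.983). For Aldh1a1 they were Prkag2 (0.952), Mmp23 (0.948), Mamld1 (0.937), Matn2 (0.937) and Tril (0.933), and for Rdh10 Map4k3 (0.912), Aldoa (0.902), Mall (0.899), Chsy3 (0.899) and S100a6 (0.891). The points share libraries and populations, so a gene that separates the populations in the same way gives a high r.

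Around the members stood the wider retinoid pathway, whose counts of calls stand beside 44.7%, 58.4% and 39.9% of all tested genes called in AP against basal, HSL against basal and HSL against AP. Of 11 genes of retinol uptake, transport and storage, 8 were tested. Against basal cells 3 rose and 2 fell in AP and likewise 3 and 2 in HSL cells (median log2 0.67 and -0.55), and HSL cells exceeded AP cells for 1 and fell below them for 2 (median 0.60). Lrat, which esterifies retinol for storage, was at 1.79 ± 1.09 CPM in the basal group, 0.108 ± 0.120 in AP and 0.273 ± 0.228 in HSL libraries (SD, n = 6) and was lower in AP than in basal cells (adjusted p = 0.000599). Its span lies wholly within another annotated gene. Rbp4, the plasma carrier of retinol, was at 0.435 ± 0.194, 1.24 ± 0.481 and 4.05 ± 1.40 CPM, higher in HSL than in basal cells (adjusted p = 6.35e-07), and Bco1, which cleaves carotene to retinaldehyde, at 0.0603 ± 0.0951, 0.497 ± 0.424 and 1.47 ± 0.907 CPM.

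Of 17 genes of retinol and retinaldehyde interconversion, 10 were tested. Calls up and down numbered 2 and 4 for AP against basal, 4 and 2 for HSL against basal, and 4 and 1 for HSL against AP (medians -0.08, 0.31 and 0.37). Dhrs3, which reduces retinaldehyde back to retinol, was at 53.8 ± 16.4 CPM in the basal group, 167 ± 42.3 in AP and 217 ± 23.4 in HSL libraries. It was higher in AP by 1.64 ± 0.20 (adjusted p = 2.23e-06) and in HSL by 2.01 ± 0.20 (adjusted p = 1.22e-07) than in basal cells. Dhrs9 and Rdh12, dehydrogenases of the same superfamily, were highest in basal libraries. Dhrs9 was at 17.5 ± 8.96, 0.944 ± 0.857 and 0.198 ± 0.383 CPM and Rdh12 at 8.27 ± 1.94, 0.690 ± 0.373 and 0.202 ± 0.164 CPM in basal, AP and HSL libraries, both called lower in AP and in HSL than in basal cells. Dhrs4 was not called in any comparison, at 35.4 ± 6.65, 32.8 ± 14.0 and 32.2 ± 7.97 CPM.

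Among 13 receptors, partners and cofactors, 12 were tested. In AP against basal 1 was higher and 0 lower, in HSL against basal 0 and 3, and in HSL against AP 0 and 4 (medians -0.02, -0.10 and -0.28). When sample number was fitted as a block the calls came to 2, 6 and 5. Rarb, a retinoic acid receptor that is itself a retinoic acid target, was at 1.79 ± 0.815 CPM in the basal group, 0.881 ± 0.256 in AP and 0.347 ± 0.249 in HSL libraries. It was lower in HSL than in basal cells by -2.34 ± 0.45 (adjusted p = 0.000204). Fabp5, a fatty acid binding protein that can also carry retinoic acid, was at 16.6 ± 10.3, 9.74 ± 5.96 and 1.23 ± 1.36 CPM, lower in HSL than in basal cells by -3.73 ± 0.66 (adjusted p = 8.57e-05) and than in AP cells by -2.96 ± 0.63 (adjusted p = 0.00117). The coactivator Ncoa1 was lower in HSL than in basal cells (adjusted p = 1.91e-05). Rxra and Ncor1 were not called in any comparison, at 160 ± 24.8, 137 ± 23.6 and 160 ± 23.6 CPM for Rxra.

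Of 15 known retinoic acid target genes 11 were tested, with 2 calls up and 4 down in AP against basal, 4 and 7 in HSL against basal, and 2 and 5 in HSL against AP (medians -0.70, -2.44 and -0.04). All 11 were thus called in HSL against basal, where 58.4% of all tested genes were. Dhrs3, described above, is also on this list. Cd38, an ectoenzyme of NAD metabolism, was at 13.5 ± 2.10 CPM in the basal group, 1.45 ± 0.415 in AP and 1.41 ± 0.949 in HSL libraries. Rarres2, the chemerin gene, was at 6.33 ± 2.02, 3.91 ± 1.83 and 0.418 ± 0.223 CPM, lower in HSL than in basal cells (adjusted p = 2.16e-07), with 33.2% of its span shared with other genes. Since these lists were drawn up with earlier results of the data known, their counts are descriptions.

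Other aldehyde dehydrogenases, which use many aldehydes besides retinaldehyde, numbered 16, of which 14 were tested. In AP against basal 4 were higher and 3 lower, in HSL against basal 7 and 2, and in HSL against AP 6 and 2 (medians 0.01, 0.65 and 0.36). Aldh2, the mitochondrial acetaldehyde dehydrogenase, was at 841 ± 73.8 CPM in the basal group, 264 ± 42.0 in AP and 75.9 ± 15.0 in HSL libraries, and it fell by 1.67 ± 0.14 in AP (adjusted p = 1.66e-08) and by 3.47 ± 0.15 in HSL (adjusted p = 5.08e-12) against basal cells. Aldh3a2, which oxidizes long-chain fatty aldehydes, was at 114 ± 8.63, 142 ± 29.9 and 508 ± 67.6 CPM and was higher in HSL than in basal cells by 2.16 ± 0.14 (adjusted p = 4.93e-10). Aldh7a1 was not called in any comparison, at 164 ± 8.57, 160 ± 19.98 and 154 ± 12.1 CPM.

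**Figure D5:**
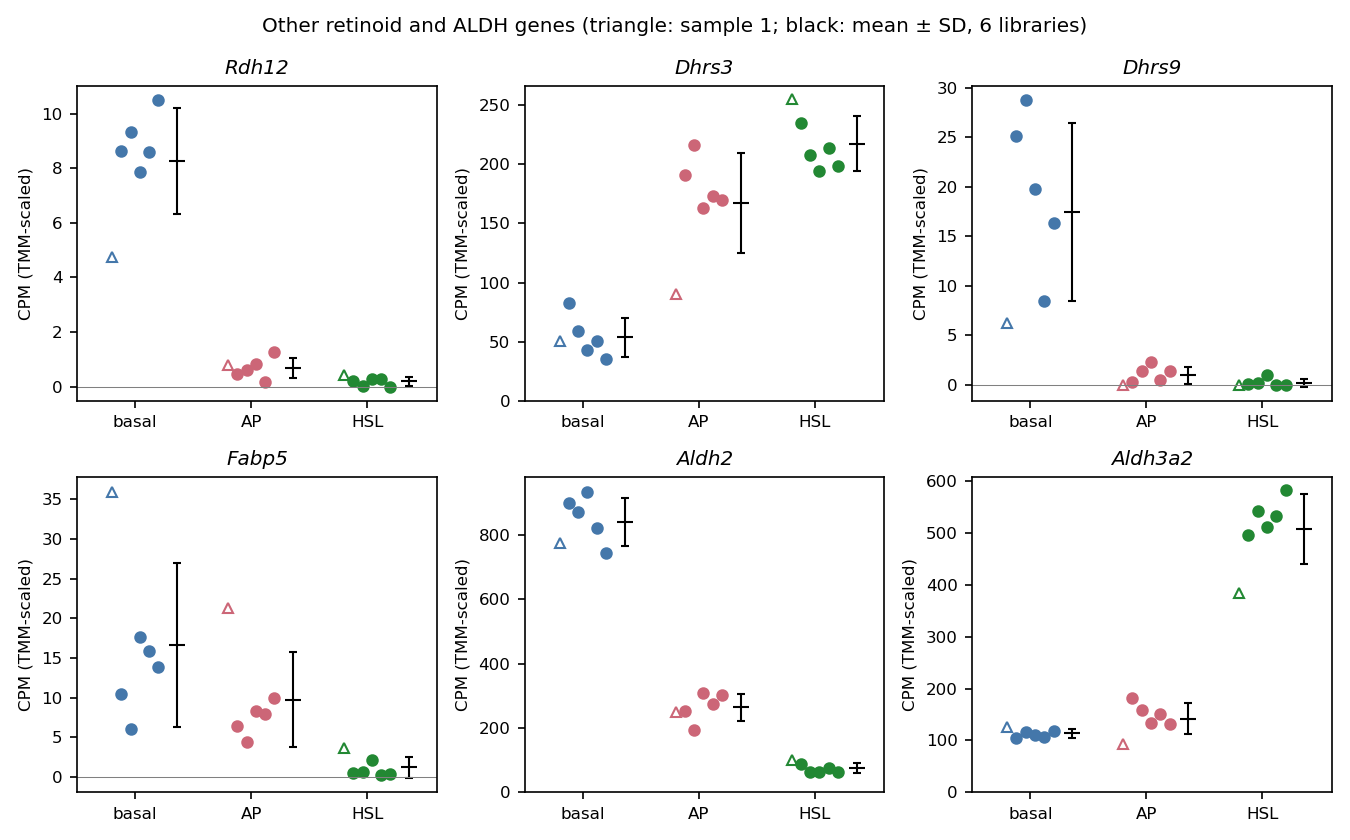
Level of Rdh12, Dhrs3, Dhrs9, Fabp5, Aldh2 and Aldh3a2 in each library (CPM, linear axis); each point is 1 library, a triangle is sample 1, and the black mark is the mean ± SD of 6 libraries. The means of Rdh12, Dhrs9 and Aldh2 are highest in basal libraries, and those of Dhrs3 and Aldh3a2 in HSL libraries.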

How the data were processed

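RNA from 18 sorted mammary libraries was converted to cDNA with the Smart-Seq V4 kit, per the labels' protocols. The authors deposited a count per gene and library, with a gene width, per the file headers, and an RPKM value that was not used. The build is GRCm38, per the submitters' processing notes; which aligner and counter were used is not given in the sources at hand. Whether counting used strand is not stated, so reads of overlapping genes, and of the similar Aldh1a1 and Aldh1a7, may not be separable.

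Identifiers were matched to GENCODE M21 (52489 of 52636). The other 147, at most 0.00677% of a library's counts, were left out. The deposited width equals the M21 span for 44954 genes but not for Aldh1a1 (41502 against 150751 bases) or Stra6 (24909 against 90209 bases). Totals were 29899462 to 91095830 counts in basal, 37391691 to 62505465 in AP and 26516293 to 52404937 in HSL libraries. The limit for a count of 0 is 3 counts over the library total without TMM scaling and covers counting error only.

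The counts were fitted with edgeR 4.0.16 in R 4.3.3 (filterByExpr with a minimum count of 10, TMM factors, robust quasi-likelihood F test, 1 mean per population, all 18 libraries), with Benjamini-Hochberg adjustment over all genes tested and calls at 0.05. Standard errors are the log2 difference divided by the root of F. Each p sets a difference against the spread between libraries within a population. The main fit takes the 18 libraries as independent, although same-numbered libraries deviated together. The fit was tested on simulated data. Tables and figures were made in Python 3.11.15.

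Same-numbered libraries deviated together in all 18 pairs of libraries (r = 0.127 to 0.63), and 17 of 18 libraries correlated best with their own number; that a number marks 1 animal is inferred from the 6 animals of the design. Alternatives were RLE factors, total counts, no filter, DESeq2 1.42.0, the sample number as a block, leaving out each sample, and samples 1 to 3 or 4 to 6 alone, whose file names come from separate number series. Adding up Aldh1a1 and Aldh1a7 was chosen after seeing the data.

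The members and lists were chosen with earlier results of these data known. All 9 members were named, and per retinoid list up to 4 called genes with the smallest adjusted p and up to 2 uncalled genes with the highest mean; 1 gene named by this rule is not reported here. No library was left out, and no sequence was read from samples.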

Additional observations from a re-analysis of the deposited data

Results flagged for a closer look

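In 5 of 27 groups of 6 libraries (9 genes in 3 populations) 1 library lay far from the others, by Dixon's test with a critical value of 0.625. Chance would give this in about 1 of 20 groups if values were normally distributed and groups independent. The groups share libraries, and linear CPM was used without a check of its distribution. In 4 of the 5 it was the library of sample 1. Aldh1a1 was at 41.3 CPM in basal sample 1, against 6.89 to 15.2 in the other 5 basal libraries. Aldh1a7 was at 6.79 CPM in the same library, against 0.0209 to 1.36. Crabp2 was at 19.4 CPM in HSL sample 1, against 3.97 to 8.77, and Stra6 was at 11.7 CPM in AP sample 1, against 0.294 to 2.75. The fifth was Cyp26b1, at 0.963 CPM in basal sample 2 against 0.0985 to 0.382 in the others.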

How the results depend on the processing

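Of 24 member results 12 were called, and 7 of these kept their direction and their call under every alternative run. In samples 1 to 3 alone 3718, 5674 and 1491 genes were called for AP against basal, HSL against basal and HSL against AP, in place of 7356, 9621 and 6571, and 2 members in place of 4 for HSL against basal; fewer libraries enter that fit. Leaving out each sample gave 6205 to 8352, 8546 to 10651 and 5207 to 7898 genes, and 4 to 5, 3 to 6 and 3 to 5 members. Fitting sample number as a block gave 9072, 11082 and 8374 genes and 4, 4 and 5 members, and it changed no member's call but that of Aldh1a1 in HSL against AP.

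Uncalled differences turned sign, and the cause was not tested. Aldh1a7 in HSL against basal was 0.69 with the block, -0.57 to 1.29 when each sample was left out (1.29 without sample 1) and 0.72 in samples 4 to 6 alone. Crabp2 in HSL against basal was 0.62 in samples 1 to 3 alone. Stra6 was -0.22 to 0.47 when each sample was left out (-0.22 without sample 4) and -0.12 in samples 1 to 3 alone for HSL against basal, and 0.38 in samples 4 to 6 alone for HSL against AP. The median share of Aldh1a3 in HSL libraries was 97.8% without division by length and 98.0% with the deposited width, in place of 95.8%. Aldh1a7, Crabp1, Stra6, Aldh1a2 and Cyp26b1 lie near or below 1 CPM in most groups, where the depth limits what can be told.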
